A study of Rattus norvegicus with 43 samples.

Results

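Wnt signalling genes were followed in the foreskin of male rat pups whose dams had received dibutyl phthalate (DBP), a plasticizer with anti-androgenic action in the fetal male. The set holds the genes for Wnt ligands, for Frizzled and Lrp receptors, for the secreted proteins that bind either of these, for the core of the beta-catenin pathway, and for the Ccn4 to Ccn6 family once named Wisp. Members were picked by matching gene symbols in the annotation of the array's probes to the names of these families, a rule that uses no measured value, although the families themselves were proposed with earlier results of these data known. They came to 50 probes for 49 genes, of 22523 probes on the array. Of these, 40 probes for 40 genes passed the detection filter, which asked for a detection p-value under 0.05 on at least 5 arrays, and were tested among 13577 probes.

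The 43 arrays (Illumina RatRef-12 beadchip) each held RNA of 2 foreskins pooled within a Sprague Dawley litter. Dams were gavaged daily on gestational days 16 to 20 with corn oil alone or with DBP at 100 mg/kg/day (DBP100) or 500 mg/kg/day (DBP500). Fetuses at gestational day 20 (GD20) belonged to 2 studies, one of 6 corn oil and 5 DBP100 arrays, the other of 6 corn oil and 5 DBP500 arrays. At postnatal day 5 (PND5), 5 days after birth, 7 arrays each were available for corn oil, DBP100 and DBP500.

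Wnt proteins are lipid-modified by Porcn, carried to the cell surface by Wls, and bind a Frizzled receptor together with Lrp5 or Lrp6. Without a ligand, beta-catenin (Ctnnb1) is phosphorylated by Gsk3b in a complex scaffolded by Axin1, Axin2 and Apc and is degraded; with a ligand it accumulates and acts with Lef1 or Tcf7l2 on target genes, of which Axin2 is a standard feedback target. In the mouse, Wnt5a and beta-catenin are needed for outgrowth of the genital tubercle, from which the foreskin forms, and epidermal Wnt signalling starts the hair follicle.

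Values below are normalised log2 signals, so a difference of 1 is a doubling. Signals of different probes are not comparable as amounts of RNA, and each probe was compared only with itself between groups. Across arrays, 10029 to 12078 probes were detected. The highest signal on an array lay between 40826 and 55729 at GD20 and between 15335 and 29459 at PND5, so age and array run cannot be told apart. Within PND5 it was 15335 to 17753 on replicates 1 to 4 and 20110 to 29459 on replicates 5 to 7 of every group. The labelled tissue bore its markers: all 5 basal epidermis and all 10 fibroblast marker genes on the array were detected on every array. Each array averages over whole foreskins, so fewer cells of a type and less RNA per cell cannot be told apart.

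A total of 9 genes had no probe past the filter: the ligands Wnt3a, Wnt5b, Wnt8a and Wnt9a, the potentiator Rspo1, the decoys Sfrp4 and Sfrp5, the cytoplasmic adaptor Dvl3 and the scaffold Apc. The probes of Wnt3a and Sfrp5 were detected on 0 of 43 arrays, and that of Apc on 2, both of them PND5 corn oil arrays. Fzd4 had 2 probes, of which 1 was detected on 0 arrays and the other, the one tested, on 13. The members that were tested varied within groups by a median standard deviation (SD) of 0.32, against 0.279 over all tested probes. Axin2 and Lrp6 varied most, with within-group SDs of 0.648 and 0.621, at the 98.8th and 98.5th percentile of tested probes.

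Sequence upstream of the members was read from a set of rat promoter sequences (assembly GRCr8). The set held an entry for 37 of the 49 genes, Dkk3 and Wnt7b not among them. The letters CTTTGAA or CTTTGAT, the form in which the Lef1 and Tcf7l2 motif was searched on both strands, occurred in the 250 bases upstream of 7.58% of 33469 rat promoters and of 3 of 38 member promoters (Wls has 2 entries), those of Axin2, Dkk1 and Wnt8a. The promoter of Dkk1, a secreted inhibitor that binds Lrp5 and Lrp6, and the pair of matches upstream of Axin2 are shown because both genes are standard targets of the pathway; capitals mark the match. The Dkk1 stretch is chr1:237798651-237798900, minus strand, and the Axin2 stretches are chr10:94398542-94398571 and chr10:94398642-94398671, plus strand, inside the annotated span of Axin2 itself.
Dkk1: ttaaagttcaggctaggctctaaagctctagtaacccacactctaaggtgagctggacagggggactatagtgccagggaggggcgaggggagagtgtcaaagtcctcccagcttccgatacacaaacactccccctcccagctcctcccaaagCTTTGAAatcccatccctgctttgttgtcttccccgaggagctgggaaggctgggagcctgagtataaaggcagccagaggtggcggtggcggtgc
Axin2, first match: tcagatttcgcCTTTGAAaaagctgtgtcg
Axin2, second match: ttactttcttgCTTTGATgttgggtagatc
The match began 96 bases upstream of the Dkk1 start, and 232 and 132 bases upstream of the Axin2 start. The half-site AGAACA, bound by androgen and glucocorticoid receptors, was found upstream of 17.5% of all promoters and of 1 of 38 member promoters, that of Wnt8b. A match describes letters only and is not a site shown to be bound.

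In GD20 foreskin exposed to DBP100, 1 of 40 tested members passed the test, Dkk3, which rose; over all tested probes 0.589% passed, and 0.081% passed as higher. Dkk3 is a secreted glycoprotein of the Dickkopf family that, unlike Dkk1 and Dkk2, is not an established blocker of Lrp5 and Lrp6. Its log2 signals on the DBP100 arrays were 7.78, 7.55, 7.33, 7.23 and 6.89, and its 6 control values ran from 6.08 through a median of 6.63 to 6.83. Every exposed array lay above every control array, with 0.06 between the lowest exposed and the highest control array. The difference was 0.77 ± 0.18 (SE, n = 5 and 6), or 1.71-fold, with an adjusted p of 0.0316 from limma's moderated test. Groups did not overlap for 0.611% of all tested probes and for Dkk3 alone among members.

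That call depended on single arrays and on settings. The adjusted p of Dkk3 became 0.162 or 0.121 when corn oil replicate 2 or 5 was dropped. It became 0.197, 0.174 or 0.17 when DBP100 replicate 1, 2 or 3 was dropped, while the difference stayed between 0.67 and 0.89 whichever array was left out. Fitting only the 11 arrays of that study gave an adjusted p of 0.38 for the same difference. With arrays shifted to 1 median in place of quantile normalisation the difference was 0.71 (0.0547), and with the controls of both GD20 studies pooled it was 0.47 (0.248), where Axin2 passed instead.

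Dkk3 was also the member with the smallest p at the higher GD20 dose, in the other study. Its DBP500 arrays read 7.81, 7.83, 8.18, 7.69 and 7.78, and the 6 controls ran from 6.98 through 7.11 to 7.56. Again no exposed array overlapped a control array. The difference was 0.66 ± 0.18 (n = 5 and 6), or 1.58-fold, and it did not pass (limma adjusted p 0.131). It passed in 5 other settings that keep to the controls of its own study, with adjusted p from 0.00427 with array weights to 0.046 with arrays shifted to 1 median, and at 0.00998 on the authors' own normalised values. With the controls of both studies pooled it was 0.97 (0.00228), a value that mixes in the lower Dkk3 level of the other study's controls.

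The control level of Dkk3 itself differed between the GD20 studies by 0.62 ± 0.17 (limma adjusted p 0.00828), close to the size of either exposure difference. The DBP100 arrays of one study, mean 7.36, therefore stood near the corn oil arrays of the other, mean 7.20. At PND5 the ranges of the 3 groups overlapped. Its 7 corn oil arrays ran from 6.13 through 6.60 to 7.33, those of DBP100 from 6.23 through 6.50 to 6.89, and those of DBP500 from 6.27 through 6.37 to 6.86. The differences from corn oil were -0.16 for DBP100 and -0.25 for DBP500, neither past the test. The change of effect between the ages was -0.93 ± 0.24 for DBP100 (limma adjusted p 0.266) and -0.91 ± 0.24 for DBP500 (0.0708); the latter passed in 5 of the 10 other settings run.

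**Figure D1:**
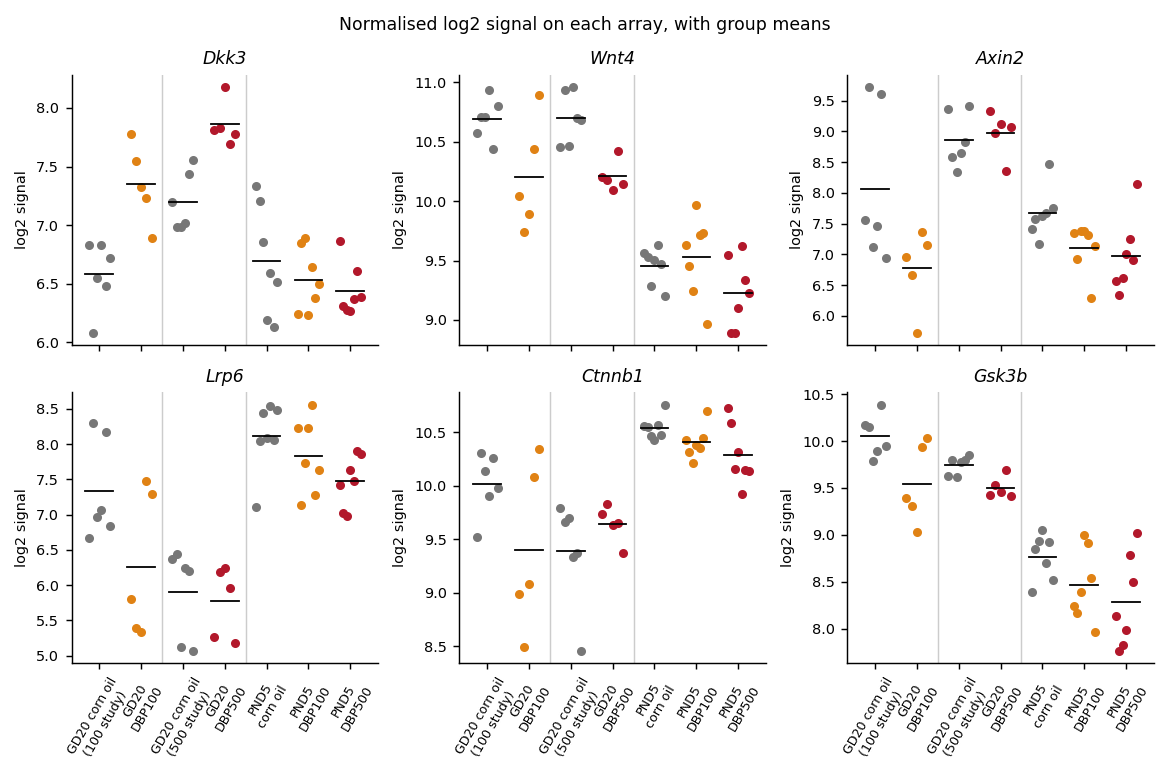
Normalised log2 signal (vertical axis, scale differs by panel) of 6 members on every array, by group (horizontal axis), each point 1 array and each black line a group mean. Dkk3 lies higher on all DBP100 and DBP500 arrays than on the controls of the same GD20 study; Lrp6, Ctnnb1, Gsk3b and Wnt4 have 3 low DBP100 arrays at GD20, and the Axin2 controls of that study fall apart into 2 high and 4 lower arrays.

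Among ligands at GD20, Wnt4, which acts in the development of the reproductive tract, had the lowest p in both studies. On the DBP100 arrays it read 10.04, 9.74, 9.89, 10.44 and 10.89, against controls from 10.44 through 10.71 to 10.93. Of the exposed arrays, 4 were below all controls, replicate 4 by less than 0.01, and replicate 5 was within the controls' range. On the DBP500 arrays it read 10.20, 10.18, 10.09, 10.42 and 10.15, against controls from 10.46 through 10.69 to 10.96, with no overlap. The differences were -0.49 ± 0.16 for DBP100 and -0.49 ± 0.16 for DBP500 (limma adjusted p 0.159 and 0.297). Neither passed, and at DBP500 the groups failed to overlap for 2 of 40 members, Dkk3 and Wnt4, and for 2.11% of all tested probes. At PND5 the DBP500 difference was -0.23 and the DBP100 difference 0.07.

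Wnt16, a ligand of the skin and skeleton, was 0.39 lower at GD20 with DBP100 and 0.08 lower with DBP500, and Wnt5a was 0.15 and 0.13 lower. Neither passed in either study. Rspo3, a secreted potentiator of Wnt signalling, read 6.83, 6.90, 7.05, 6.81 and 7.43 on the DBP500 arrays, against controls from 7.20 through 7.43 to 7.65. Of these, 4 exposed arrays were below all controls and the fifth was among them (difference -0.41 ± 0.16, limma adjusted p 0.51). Wls, the carrier of Wnt proteins, was 0.33 ± 0.15 higher with DBP500 and 0.27 lower with DBP100, and the difference between these effects was 0.60 ± 0.21 (limma adjusted p 0.25). Wnt1 and Rspo2, also among the 8 members of smallest p at DBP500, differed by 0.29 and -0.22, and were detected on 3 of 5 and 0 of 5 exposed arrays.

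Among secreted antagonists, Frzb, a Frizzled-related decoy that binds Wnt proteins, was detected on 4 of 6 control arrays and 0 of 5 exposed arrays of the DBP500 study. The exposed arrays read 5.43, 4.94, 5.11, 4.78 and 4.88, and the controls ran from 5.29 through 5.70 to 6.52. One exposed array reached into the range of the controls. Against the detection limit the signal was at least 1.14-fold lower, and the test was not passed (limma adjusted p 0.234). In the DBP100 study its controls were detected on 0 of 6 arrays and its exposed arrays on 3 of 5. Dkk1 read 7.65, 8.02, 7.78, 8.19 and 8.31 with DBP500 against controls from 8.03 through 8.48 to 8.61, a difference of -0.44 ± 0.19 (limma adjusted p 0.569), and differed by -0.09 with DBP100. Dkk2, like Dkk1 a ligand of Lrp5 and Lrp6, was 0.41 ± 0.19 higher with DBP100 (limma adjusted p 0.376) and 0.07 lower with DBP500. Sfrp2, another Wnt-binding decoy, was within 0.04 of its controls at both doses.

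Lrp6 and the intracellular genes Axin2, Ctnnb1 and Gsk3b were lower in the DBP100 study, and none passed. Axin2 read 6.96, 6.66, 5.72, 7.36 and 7.14 on the exposed arrays; among the controls, replicates 2 and 5 stood at 9.72 and 9.61 and the other 4 between 6.93 and 7.55. Exposed replicates 1, 4 and 5 lay within the range of those 4 controls. The difference was -1.30 ± 0.37, or 2.46-fold lower (limma adjusted p 0.0842). With control replicates 2 and 5 left aside, a setting chosen after seeing the data, it was -0.50.

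Lrp6, the coreceptor, read 5.80, 5.39 and 5.33 on exposed replicates 1 to 3 and 7.47 and 7.29 on replicates 4 and 5, and was detected on 3 of the 5 arrays. Its controls ran from 6.67 through 7.01 to 8.30, replicates 2 and 5 again highest. The difference was -1.08 ± 0.35 (limma adjusted p 0.158), and 0.05 with exposed replicates 4 and 5 only, a setting chosen after seeing the data. Beta-catenin (Ctnnb1) read 8.99, 8.49 and 9.08 on exposed replicates 1 to 3 and 10.08 and 10.34 on replicates 4 and 5, and its controls ran from 9.53 through 10.06 to 10.31. The difference was -0.62 ± 0.21 (limma adjusted p 0.186), and 0.19 with exposed replicates 4 and 5 only. For both genes that setting leaves out the arrays seen to be low, so it is no test of the difference. Corn oil arrays of the DBP500 study ran from 5.07 to 6.44 for Lrp6 and from 8.46 to 9.80 for Ctnnb1. Exposed replicates 1 to 3 of the DBP100 study lay within these ranges of unexposed arrays.

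Gsk3b, the kinase of the degradation complex, had the same order: 9.40, 9.30 and 9.03 on exposed replicates 1 to 3 and 9.94 and 10.03 on replicates 4 and 5, against controls from 9.79 through 10.05 to 10.39. Its difference was -0.52 ± 0.19 (limma adjusted p 0.228), and -0.07 with replicates 4 and 5 only, the same setting chosen after seeing the data. For Lrp6, Ctnnb1 and Gsk3b the exposed group was thus made of 3 low arrays and 2 arrays inside or at the edge of the controls' range. The same 3 arrays were the lowest of the 11 for Wnt4 and Wnt5a, and the number of probes detected on them was 10063, 10156 and 10257, against 11005 and 10494 on exposed replicates 4 and 5 and 10488 to 11181 on the controls. Control replicates 2 and 5 had 11131 and 11181. The part of this in the differences was not tested.

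**Figure D2:**
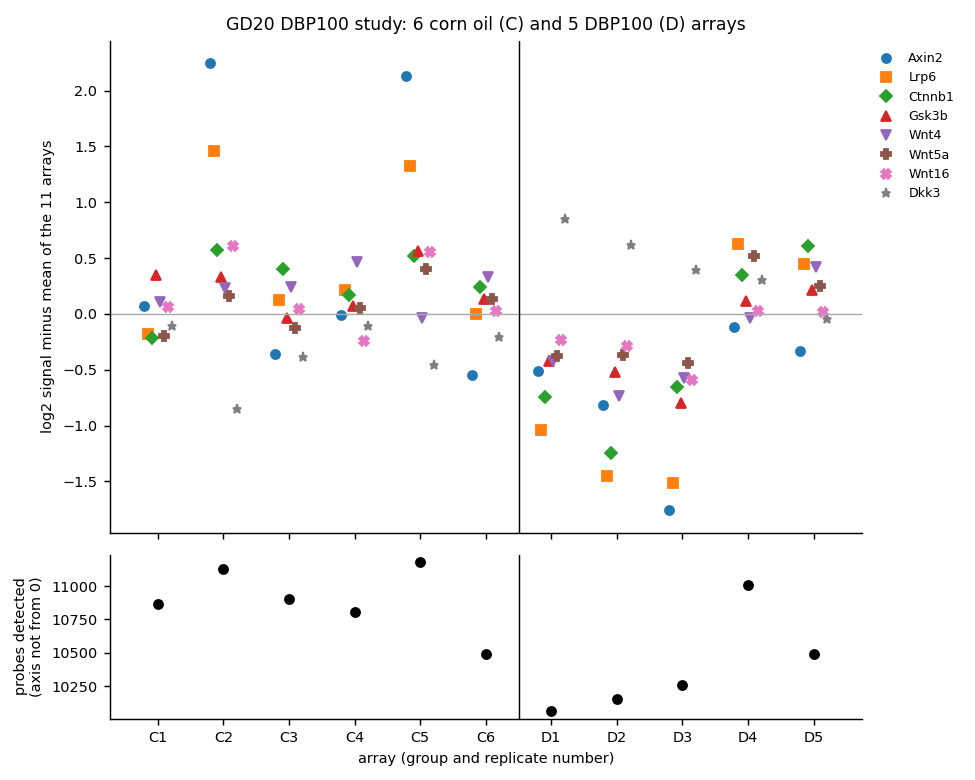
Upper panel: log2 signal of 8 members on each of the 11 arrays of the GD20 DBP100 study (horizontal axis, C corn oil, D DBP100, with replicate numbers) minus the mean of those arrays. Lower panel: number of probes detected on the same arrays, on an axis that does not start at 0. Arrays D1 to D3 lie below that mean for 7 of the members and above it for Dkk3, C2 and C5 are high for Axin2, Lrp6 and Wnt16, and D1 to D3 had the fewest probes detected.

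In the DBP500 study Axin2 was 0.10 higher, Ctnnb1 0.26 higher and Lrp6 0.14 lower, and none passed. Gsk3b read 9.43, 9.53, 9.46, 9.69 and 9.42 on the exposed arrays against controls from 9.61 through 9.79 to 9.85, so that 4 of the 5 were below all controls, as were 3 of 5 in the DBP100 study. Its difference was -0.24 and did not pass. The difference between the DBP500 and DBP100 effects was 1.40 ± 0.52 for Axin2 (limma adjusted p 0.292), 0.88 ± 0.30 for Ctnnb1 (0.25), and 0.94 for Lrp6. Frzb had the smallest p of these (0.184), with no size given because neither the DBP500 arrays nor the controls of the DBP100 study detected it. The difference was -0.54 for Rspo3, -0.49 for Dkk2 and -0.44 for Ccn6, and 0 of 40 members passed where 0.133% of all probes did. At an unadjusted p under 0.05 there were 5 members (10.7% of all probes). Lef1, the transcription factor, differed by 0.24 with DBP100 and -0.16 with DBP500, and the Frizzled receptor Fzd1 by -0.18 and 0.02.

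Over the whole set at GD20, the median difference was -0.04 with DBP100, with 23 of 40 members lower, against 0.02 over all tested probes. With DBP500 it was -0.06, with 24 of 40 lower, against 0.00 over all probes. At DBP500 0 members passed where 0.302% of all probes did, and 6 members had an unadjusted p under 0.05 (15% of members, 7.39% of all probes). At DBP100 there were 7 such members (17.5%, against 11.4%). The studies do not share control arrays, so signs can be set side by side: 21 of 40 members (52.5%) had the same sign at both doses, against 47.8% of all tested probes, with 14 members lower at both and 7 higher at both.

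Markers of some cell types leaned to one side at GD20, and the remaining marker lists are not given here. With DBP500, all 10 skeletal muscle markers were lower (median -0.66, 0 called), 7 of 8 smooth muscle markers were lower (1 called), and all 10 markers of differentiated epidermis were higher (median 0.26, 0 called). With DBP100, 9 of 10 markers of differentiated epidermis were lower (median -0.30, 0 called). The mean log2 signal of the skeletal muscle markers ran from 5.92 to 7.11 on DBP500 arrays and from 6.05 to 8.24 on their controls; that of differentiated epidermis ran from 8.69 to 8.92 on DBP100 arrays and from 8.82 to 9.47 on their controls. The part of these cell types in the differences of the Wnt genes was not tested.

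**Figure D3:**
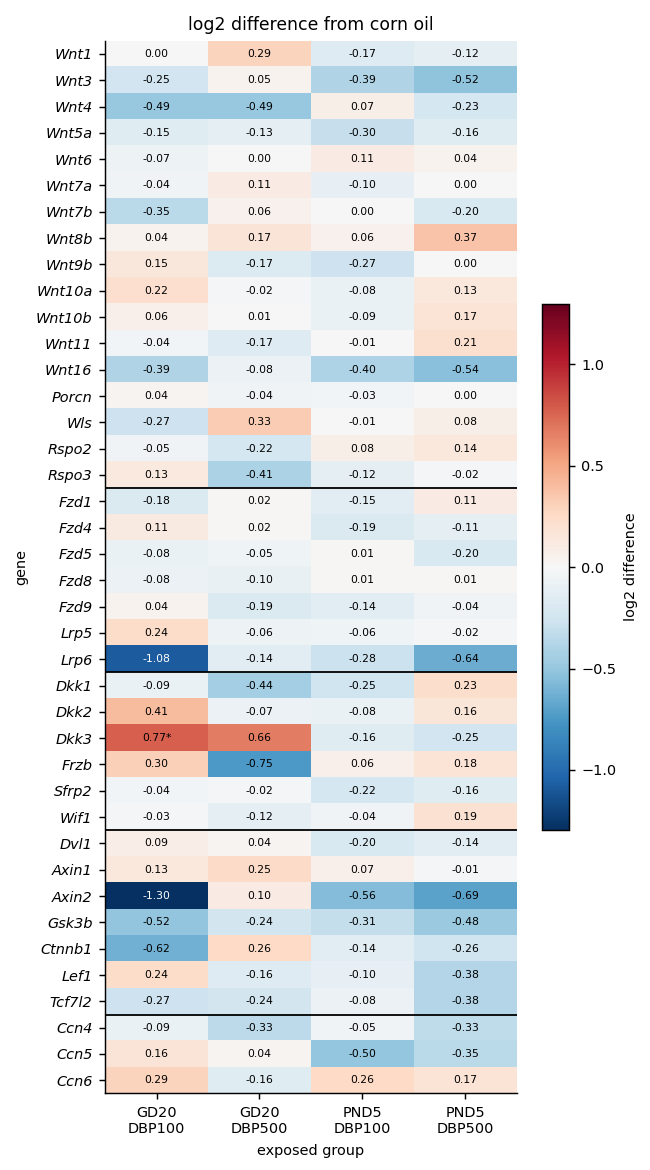
Log2 difference from corn oil of all 40 tested members (vertical axis) in the 4 exposed groups (horizontal axis), in blocks for ligands and their processing, receptors, secreted modulators, intracellular genes and the Ccn family; red is higher and blue lower than corn oil. The numbers of dim members, Frzb with DBP500 at GD20 among them, include groups with no array detected. The asterisk marks the 1 difference that passed, that of Dkk3 with DBP100 at GD20; Axin2 and Lrp6 in that study were the lowest, at -1.30 and -1.08.

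At PND5, 5 days after birth, 0 of 40 members passed at either dose. With DBP500, 3.67% of all tested probes passed; with DBP100, 0.081% did. Among members, 6 had an unadjusted p under 0.05 with DBP500 (15%, against 18.3% of all probes) and 3 with DBP100 (7.5%, against 10.4%). For 0 members did the groups fail to overlap, where 0.633% and 0.0958% of all probes did so.

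The ligand Wnt16 came closest. With DBP500 it ran from 8.20 through 9.34 to 9.39, with DBP100 from 8.58 through 9.27 to 9.82, and with corn oil from 9.05 through 9.63 to 10.17. The top of the DBP500 range was below 6 of the 7 corn oil arrays. Its DBP500 difference was -0.54 ± 0.17 (n = 7 and 7, limma adjusted p 0.0643), with -0.74 on replicates 1 to 4 and -0.26 on replicates 5 to 7; the DBP100 difference was -0.40 ± 0.17 (limma adjusted p 0.379). The DBP500 difference passed without corn oil replicate 1 (0.0226) and without DBP500 replicate 7 (0.0467).

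Wnt3, a ligand of epidermis and hair follicle, ran from 5.76 through 6.49 to 7.0 with DBP500, from 5.34 through 6.59 to 7.29 with DBP100, and from 6.56 through 7.11 to 7.34 with corn oil. The groups overlapped, and its differences were -0.52 ± 0.19 (limma adjusted p 0.108) and -0.39 ± 0.19 (0.456). Gsk3b ran from 7.77 through 8.14 to 9.02 with DBP500, from 7.97 through 8.39 to 9.0 with DBP100, and from 8.39 through 8.85 to 9.05 with corn oil. Its DBP500 difference of -0.48 ± 0.17 (limma adjusted p 0.0973) was -0.88 on replicates 1 to 4 and 0.05 on replicates 5 to 7, so it was carried by the first set of arrays. Without DBP500 replicate 7 it passed (0.023).

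Axin2 ran from 6.34 through 6.91 to 8.14 with DBP500, from 6.29 through 7.31 to 7.38 with DBP100, and from 7.17 through 7.63 to 8.46 with corn oil. Its differences were -0.69 ± 0.33 (limma adjusted p 0.244), with -0.81 and -0.53 on the 2 sets of replicates, and -0.56, with -0.19 and -1.05. Lrp6 was 0.64 ± 0.31 lower with DBP500 (limma adjusted p 0.264) and 0.28 lower with DBP100. Lef1 was 0.38 and 0.10 lower, Ctnnb1 0.26 and 0.14 lower, Wnt5a 0.16 and 0.30 lower, and Sfrp2 0.16 and 0.22 lower with DBP500 and DBP100. Fzd1 was 0.11 higher with DBP500 and 0.15 lower with DBP100. None of these passed.

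Wnt8b, near background, was 0.37 higher with DBP500 (detected on 5 of 7 arrays, against 2 of 7 with corn oil; limma adjusted p 0.221). Ccn5, a secreted matricellular protein, was 0.50 lower with DBP100 and 0.35 lower with DBP500, and was detected on 1, 2 and 4 of 7 arrays with DBP100, DBP500 and corn oil. In the DBP100 comparison it had the smallest p (limma adjusted p 0.249), Gsk3b was 0.31 lower, and Dvl1, the adaptor below the Frizzled receptors, 0.20 lower. Over all members the median difference was -0.10 with DBP100, 31 of 40 lower, against 0.00 over all probes, and -0.03 with DBP500, 25 of 40 lower, against 0.02. Both PND5 comparisons use the same 7 corn oil arrays. Markers of some cell types leaned to one side at PND5 too, and the remaining marker lists are not given here. At either dose 0 were called for fibroblasts, leukocytes or smooth muscle. Fibroblast markers were lower for 9 of 10 genes with DBP100 (median -0.18) and 9 of 10 with DBP500 (median -0.14), and smooth muscle markers for 6 of 8 at each dose. Leukocyte markers were higher for 8 of 9 genes with DBP100 and 9 of 9 with DBP500. The mean log2 signal of the fibroblast markers ran from 12.85 to 13.08 on corn oil, 12.65 to 13.03 on DBP100 and 12.66 to 12.89 on DBP500 arrays. That of the leukocyte markers ran from 8.33 to 8.59, 8.34 to 9.51 and 8.49 to 8.75. The part of these cell types in the differences of the Wnt genes was not tested.

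Set against each other at PND5, DBP500 and DBP100 gave 0 of 40 members past the test, where 0.0516% of all probes passed, and 3 with an unadjusted p under 0.05 (9.03% of all probes). Dkk1 was the first of these: it ran from 7.71 through 8.06 to 8.45 with DBP500 and from 6.86 through 7.64 to 8.38 with DBP100, 0.48 ± 0.16 higher at the higher dose (limma adjusted p 0.323). Corn oil arrays ran from 7.31 through 7.89 to 8.39, with a median between those of the doses. Wnt4 was 0.30 lower and Wnt10b, a ligand of hair follicle and fat, 0.26 higher at the higher dose, and next came Wnt8b (0.31), Fzd1 (0.26), Wnt10a (0.22), Wif1 (0.24) and Dkk2 (0.24), all higher there without passing.

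Between the ages, the change in the exposure effect passed for 0 of 40 members at either dose, where 0.412% of all probes passed for DBP500 and 0% for DBP100; 3 members had an unadjusted p under 0.05 at each dose, against 12.8% and 8.51% of all probes. For DBP500 these were Dkk3, Frzb (limma adjusted p 0.143, with no size given because 0 of 5 GD20 DBP500 arrays detected it) and Dkk1 (0.67 ± 0.25, 0.211), all secreted modulators, followed by Wnt3 (-0.57), Ctnnb1 (-0.52), Rspo3 (0.39), Wnt16 (-0.46) and Wnt1 (-0.41). For DBP100 they were Dkk3, Wnt4 (0.57 ± 0.22, 0.419) and Ccn5 (-0.66 ± 0.26, 0.442), followed by Dkk2 (-0.50), Ctnnb1 (0.48), Lrp6 (0.80), Dvl1 (-0.29) and Lrp5 (-0.30). The comparisons at the 2 ages share no control arrays, and the signs of the members were equal for 21 of 40 at DBP500 (48.6% of all probes) and 22 of 40 at DBP100 (55.1%).

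Age was compared in corn oil foreskin, PND5 against the mean of both GD20 control groups. Here 27 of 40 members passed (67.5%), against 61.6% of all tested probes. At PND5 12 of them were higher and 15 lower, where 26.7% and 34.9% of all probes were. The groups did not overlap for 15 members, against 21.1% of all probes. The median member difference was -0.09, the same to this precision as over all probes. Scaling matters here: with arrays shifted to 1 median in place of quantile normalisation, the median of all probes moved by -0.19, the share of higher among all calls went from 43.3% to 29.0%, and the members called became 8 higher and 17 lower.

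Of the ligands, 7 fell and 2 rose. Wnt6, a ligand of surface epithelium, had the largest fall among members: its 12 GD20 corn oil arrays ran from 9.77 through 10.29 to 10.83 and its 7 PND5 arrays from 8.19 through 8.50 to 9.18, with no overlap. The difference was -1.81 ± 0.15, or 3.49-fold lower (limma adjusted p 5.63e-14). Wnt10a, a ligand of hair, tooth and sweat gland, ran from 5.95 through 6.56 to 7.31 at GD20. At PND5 it ran from 4.98 through 5.42 to 5.60, and 4 of 7 arrays detected it. It fell by 1.29 ± 0.12 on the log2 scale (limma adjusted p 2.04e-12). The difference was -0.84 with an offset of 50 and -0.56 without background correction, both past the test. Wnt6 and Wnt10a are neighbouring genes on chromosome 9, and other neighbouring pairs occur among members. Their upstream sequences are shown because this pair fell together, a choice made after the values were seen. Neither of the sequences holds the motif searched above. They lie at chr9:83778302-83778551 and chr9:83798344-83798593 of GRCr8, both on the plus strand.
Wnt6: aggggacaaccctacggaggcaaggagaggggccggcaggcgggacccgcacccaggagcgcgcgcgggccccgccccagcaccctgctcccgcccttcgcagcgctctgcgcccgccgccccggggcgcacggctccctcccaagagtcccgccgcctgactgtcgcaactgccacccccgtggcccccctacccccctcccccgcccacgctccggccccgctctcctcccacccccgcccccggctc
Wnt10a: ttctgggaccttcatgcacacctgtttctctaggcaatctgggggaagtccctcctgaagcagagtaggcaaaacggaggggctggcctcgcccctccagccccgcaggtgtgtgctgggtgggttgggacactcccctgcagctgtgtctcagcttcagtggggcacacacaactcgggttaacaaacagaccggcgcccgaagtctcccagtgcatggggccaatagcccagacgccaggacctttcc
The Wnt6 stretch is 79.6% G or C with 28 CG steps, and the Wnt10a stretch 61.2% with 8.

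Wnt4 fell from a GD20 range of 10.44 to 10.96 to a PND5 range of 9.20 to 9.63 (-1.24 ± 0.13, limma adjusted p 3.93e-11). Wnt3 fell by 1.08 ± 0.17, Wnt5a by 0.86 ± 0.15, Wnt16 by 0.85 ± 0.15 and Wnt10b by 0.41 ± 0.11 on the log2 scale. Wnt7b, a ligand of epithelium, went the other way: it was detected on 1 of 12 GD20 arrays and 7 of 7 PND5 arrays, with ranges of 4.67 to 5.63 and 5.74 to 6.74 that did not meet (1.33 ± 0.17, limma adjusted p 6.02e-09). The Wnt7b probe was near background at GD20 and passed the detection filter only through its PND5 arrays. The detection counts therefore add no support to the difference. For Wnt7b the difference was 0.78 with an offset of 50 and 0.60 without background correction, both past the test. Wnt11 rose by 0.79 ± 0.23 (limma adjusted p 0.00285). Porcn fell by 0.58 ± 0.12 on the log2 scale. Wls rose by 0.80 ± 0.12 and Rspo3 by 0.36 ± 0.13, and both lost the call under the median shift, at 0.27 and 0.22.

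Both coreceptors moved, in opposite directions. Lrp5 ran from 8.76 through 9.50 to 9.96 at GD20 and from 8.18 through 8.49 to 8.62 at PND5, and fell by 0.92 ± 0.11 on the log2 scale (limma adjusted p 3.42e-09). Lrp6 ran from 5.07 through 6.55 to 8.30 and from 7.11 through 8.08 to 8.54, and rose by 1.49 ± 0.28 (1.25e-05), with ranges that overlapped. Its GD20 controls differed by study, at 6.67 to 8.30 in the DBP100 study and 5.07 to 6.44 in the DBP500 study. Only the former overlapped the PND5 range, so the size of the rise depends on the control group. Fzd1 ran from 8.34 through 9.05 to 9.33 and from 9.59 through 9.95 to 10.29, with no overlap, and rose by 0.98 ± 0.13 (2.75e-08). Fzd5 was detected on 0 of 12 GD20 and 3 of 7 PND5 arrays and passed as higher (limma adjusted p 0.0153), with no fold because the bound was under 1. Fzd4, Fzd8 and Fzd9 did not pass.

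Of the secreted inhibitors, Sfrp2 rose without overlap from a GD20 range of 10.86 to 11.54 to a PND5 range of 12.12 to 12.64 (0.98 ± 0.12, limma adjusted p 4.35e-09). Dkk1 and Dkk2 each fell by 0.59 ± 0.15 on the log2 scale (0.000628 and 0.00051), while Dkk3 differed by -0.20 and Frzb by -0.09 without passing. Wif1, which binds Wnt proteins directly, was called higher by 0.32 ± 0.13 (0.0299), and this reversed to -0.13 under the median shift.

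Inside the cell, Gsk3b fell by 1.13 ± 0.15 on the log2 scale, from a range of 9.61 to 10.39 at GD20 to 8.39 to 9.05 at PND5, without overlap (limma adjusted p 1.53e-08). Lef1 fell by 0.84 ± 0.18 (8.43e-05), and Tcf7l2 of the same factor family rose by 1.13 ± 0.19, from a range of 5.34 to 6.89 to one of 7.01 to 7.72 that did not meet it (3.36e-06). Ctnnb1 rose by 0.84 ± 0.17 (3.8e-05), or 0.35 without a call under the median shift. Axin2 ran from 6.93 through 8.62 to 9.72 at GD20 and from 7.17 through 7.63 to 8.46 at PND5, with overlap. It fell by 0.80 ± 0.29 (0.0165), and with array weights by 0.49 without a call. Control replicates 1, 3, 4 and 6 of the GD20 DBP100 study, at 6.93 to 7.55, lay below that PND5 median. Ccn6 fell by 0.36 ± 0.15 (0.0348) and Ccn5 rose by 0.44 ± 0.16 (0.0128), both near background. The same comparison holds large shifts in tissue markers, with all 10 markers of differentiated epidermis (median 2.32) and all 10 of skeletal muscle (median 3.70) called higher at PND5, and 6 of 7 of hair follicle; their part in the Wnt differences was not tested.

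**Figure D4:**
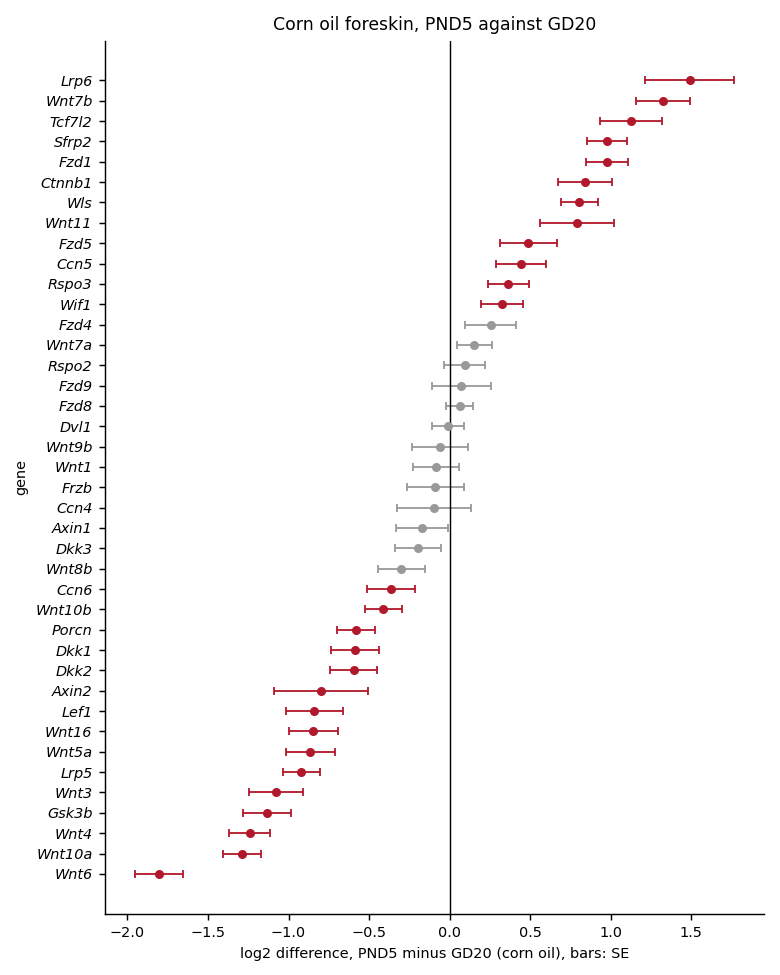
Log2 difference between PND5 and GD20 corn oil foreskin (horizontal axis) for the 40 tested members (vertical axis), with standard errors; red points passed at an adjusted p under 0.05 and grey points did not. Wnt6 at -1.81 and Lrp6 at 1.49 mark the ends of the range.

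**Figure D5:**
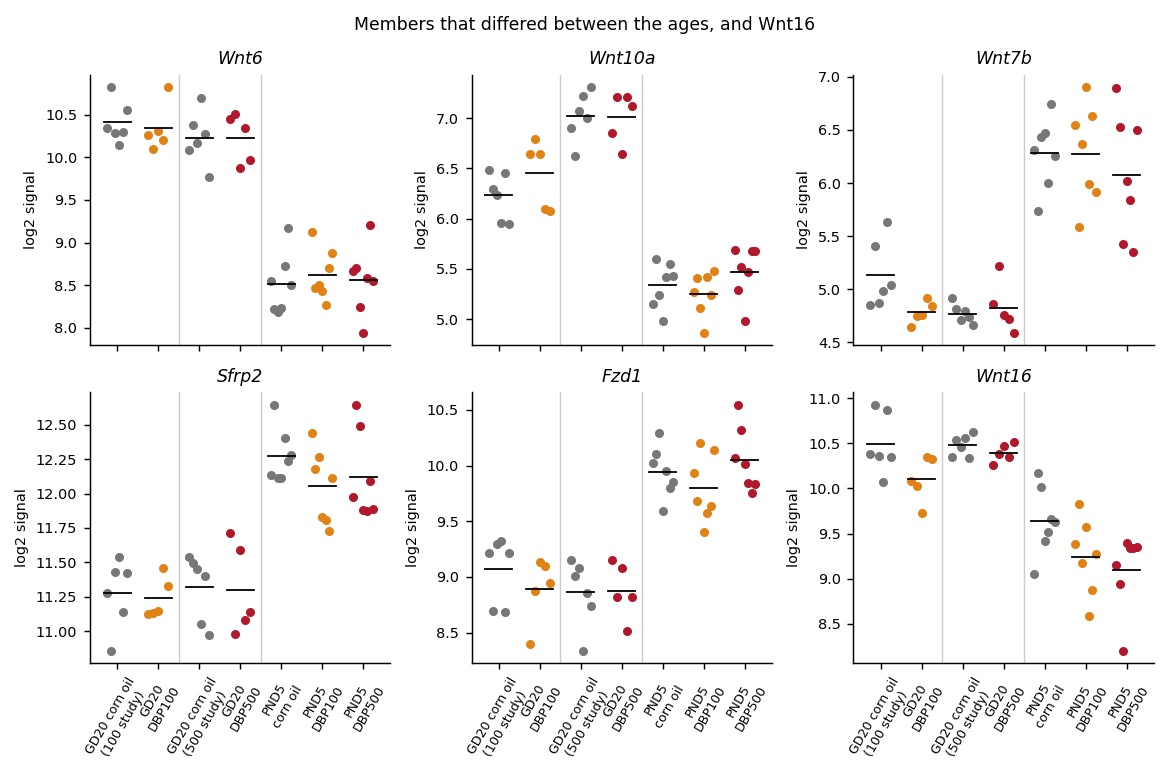
Normalised log2 signal (vertical axis, scale differs by panel) of 6 members on every array by group (horizontal axis), each point 1 array and each black line a group mean. Wnt6 and Wnt10a are lower and Wnt7b, Sfrp2 and Fzd1 higher at PND5 in exposed and corn oil groups alike, and Wnt16 has its lowest array, at 8.20, in the PND5 DBP500 group.

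The 2 sets of GD20 controls, which received the same corn oil at the same age, differed for 8 of 40 members (20%), against 22% of all tested probes (10.3% higher and 11.7% lower in the DBP500 study), and did not overlap for 5, against 11.8%. Wnt10a ran from 5.95 through 6.27 to 6.49 in the DBP100 study and from 6.62 through 7.04 to 7.31 in the DBP500 study (0.79 ± 0.14, limma adjusted p 0.000139). Lrp5 and Dkk3 were higher by 0.62 each in the DBP500 study (0.00121 and 0.00828), and Frzb was at least 1.20-fold higher (0.0349). Lower there were Lrp6 by 1.43 ± 0.34 (0.00213), Ctnnb1 by 0.63 (0.0226), Dvl1 by 0.58 (0.000656) and Wnt10b by 0.44 (0.0201). Markers of differentiated epidermis were also lower there, 10 of 10, with 7 called. Under the median shift the share of higher among all calls went from 46.9% to 68.3%, and the members called became 5 higher and 1 lower, Lrp6.

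A further list of 101 genes of the pathway, none of them members, had 70 genes on 71 tested probes. With DBP500 at GD20 1 fell (1.41% of the 71 probes, against 0.302% of all probes), Id2, an inhibitor of helix-loop-helix factors (-0.45 ± 0.11, limma adjusted p 0.0464), and 0 rose. With DBP100 at GD20 3 fell and 0 rose (4.23%, against 0.589%): Dlg1, a polarity scaffold (-1.15 ± 0.24, 0.0192), Ptk7, a Wnt coreceptor of planar polarity (-1.01 ± 0.25, 0.0395), and Tnks, the tankyrase that marks Axin for degradation (-0.88 ± 0.22, 0.0496). All of these 3 also differed between the GD20 control groups. With DBP500 at PND5 2 fell and 0 rose (2.82%, fewer than the 3.67% of all probes), the calcium-dependent kinase subunit Camk2g (-0.91 ± 0.23, 0.02) and Fbxw11, an F-box protein that takes beta-catenin to the proteasome (-0.73 ± 0.19, 0.025); 52 of the 71 probes were lower, with a median of -0.13 against 0.02 over all probes. With DBP100 at PND5, 0 passed. Under the median shift Id2, Tnks, Camk2g and Fbxw11 were not called. Between the ages in corn oil, 32 probes rose and 23 fell (77.5% of the 71 probes, against 61.6% of all probes), with a median of 0.12. Under the median shift 26 rose and 28 fell, with a median of -0.21. Only some of the genes called in the same direction under both are named here. Higher were Dlx3 (2.40), Ctnnbip1, which blocks beta-catenin from its partner factors (2.03), and Lgr4, a receptor of the R-spondins (1.33). Lower were Tbx3 (-2.76), Sostdc1 (-0.91) and Ccnd1 (-0.65).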

How the data were processed

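Foreskin RNA was measured on 43 beadchip arrays. The table the authors deposited holds, per the file headers, an intensity per probe and array beside its detection p-value (every intensity is above 0, with no sign of background subtraction); their processed intensities, quantile-normalised within each of 3 sets of arrays, were used as an alternative. The submitters' processing notes name limma and give no version.

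Signals were corrected with nec (detection p-values, offset 16), quantile-normalised over all 43 arrays and put on the log2 scale in limma 3.58.1 (R 4.3.3). Probes with a detection p under 0.05 on at least 5 arrays were kept, 13577 of 22523 (60.3%). A model of 7 group means was fitted to all of them (5.48 prior degrees of freedom), with two-sided p-values, a Benjamini-Hochberg adjustment over all tested probes of a comparison and a threshold of 0.05. A fold against a group with 0 arrays detected was computed against the detection limit. The number of arrays limits the precision. Fits were tested on simulated data.

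The gene families and lists were chosen with earlier results of these data known, and the members within the families by symbol. Named were members past the threshold in an exposure comparison and the 8 of smallest p in each exposure comparison (5 between the GD20 controls, the 12 largest rises and 12 largest falls between ages, to which Porcn, Wnt10b and Ccn6 were added after their values were seen). Axin2, Lef1, Ctnnb1, Dkk3, Wnt5a, Fzd1 and Sfrp2 were named in each comparison of an exposed group with corn oil. Not all of them were named in the comparisons between doses or between exposure effects. All 50 member probes matched a RefSeq gene with the same symbol. Arrays were not paired by replicate number across groups. No sample was left out, and no 2 arrays had identical signals.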

Additional observations from a re-analysis of the deposited data

Results flagged for a closer look

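Single outlying arrays were looked for in most of the members named with values. Ccn6, Dvl1, Fzd5, Porcn, Rspo2, Wif1, Wnt1, Wnt8b and Wnt11 were not examined. Of 168 groups of arrays examined, 15 (8.93%) held 1 array that stood apart from the rest by Dixon's criterion, where chance gives about 1 in 20. High arrays were GD20 DBP500 replicate 4 for Ccn5 (5.53), GD20 DBP500 replicate 3 for Dkk3 (8.18, the others 7.69 to 7.83), PND5 corn oil replicate 7 for Ctnnb1 (10.76), PND5 DBP100 replicate 1 for Frzb (6.62) and PND5 DBP500 replicate 4 for Frzb (6.33). Low arrays at GD20 were corn oil replicate 6 of the DBP500 study for Ctnnb1 (8.46, the others 9.34 to 9.80), corn oil replicate 5 of that study for Dkk1 (8.03) and DBP500 replicate 1 for Wnt10b (7.16).

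Low arrays at PND5 were DBP100 replicate 6 for Axin2 (6.29), corn oil replicate 1 for Lef1 (5.43) and Lrp6 (7.11), DBP100 replicate 4 for Wls (10.0), DBP100 replicate 1 for Wnt10b (6.21), DBP500 replicate 3 for Wnt16 (8.20) and DBP100 replicate 2 for Wnt3 (5.34).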

How the results depend on the processing

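Counts of members past the threshold stayed at 0 in every alternative run for PND5 DBP100, for PND5 DBP500 against DBP100 and for the age change of the DBP100 effect; between ages they ran from 24 to 29 and between the GD20 controls from 6 to 10. For GD20 DBP500 (0 as reported) the count was 1, Dkk3, under the median shift, normalisation within each set of arrays, no background correction, the authors' values and pooled GD20 controls, and 3 (Dkk3, Wnt4, Frzb) with array weights. For GD20 DBP100 (1 as reported, Dkk3) it was 0 under the median shift, with only the groups compared, with DBP100 replicates 4 and 5 only and without corn oil replicates 2 and 5 (both chosen after seeing the data), 7 with array weights, and 1, Axin2 in place of Dkk3, with pooled controls; leaving out 1 array gave 0 to 5. For PND5 DBP500 leaving out 1 array gave 0 to 2. The dose difference at GD20 (0 as reported) gave 3 with array weights and 4 with pooled controls. The age change of the DBP500 effect (0 as reported) gave 1, Dkk3, under normalisation within sets, no background correction, an offset of 50, the authors' values and array weights, and 0 to 1 without 1 array. Wif1 between ages reversed to -0.13 under the median shift. Over all probes, the 498 calls for PND5 DBP500 became 34 under the median shift and 63 with the array set as a block, and with array weights the 80 calls for GD20 DBP100 became 1118 and the 41 for GD20 DBP500 became 197. The causes were not tested.

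The correlations of same-numbered arrays exceeded 0.1 for 1 or 2 pairs per comparison, and arrays were treated as unpaired. At PND5 the numbers still mark sets of arrays, replicates 1 to 4 and 5 to 7, that differ in highest signal in every group. With the replicate block, the count was 0 for GD20 DBP100 (Dkk3 difference 0.80, limma adjusted p 0.375), 0 for the other exposure comparisons and 6 between the GD20 controls. Of the single members' values, 2216 of those without 1 array and 1445 of those under other settings kept their direction and side of the threshold. Dim probes (Frzb, Fzd5, Ccn5, Ccn6, Wnt8b, Wnt1, Rspo2, and also Wnt7b at GD20 and Wnt10a at PND5) have levels close to background, where the offset sets the size of a difference.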
